A study of Mus musculus with 5 samples.

Results

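The prostaglandin pathway, from the release of its fatty acid substrate to the receptors of its products, is described here through 10 genes in mouse uteri with a conditional deletion (cKO) of Dicer, a ribonuclease needed to make microRNAs, and in control uteri. They are the phospholipase gene Pla2g10, the cyclooxygenase genes Ptgs1 and Ptgs2, the synthase genes Ptges, Ptgds and Ptgis, the breakdown enzyme gene Hpgd and the receptor genes Ptgfr, Ptger3 and Ptger4. On the array they are written PLA2G10, PTGS1, PTGS2, PTGES, PTGDS, PTGIS, HPGD, PTGFR, PTGER3 and PTGER4, and every probe with exactly 1 of these names was taken, which gave 15 of 45281 probes, for 10 of the 31490 names on the array. The Dicer cKO group (n = 2) consists of pools 10 and 12, and the control group (n = 3) of pools 7, 9 and 11. All 5 pools are uterine total RNA from mice aged 15 days of a C57BL/6J;129S5/Brd mixed hybrid background, each read on 1 Illumina bead array. In the Dicer cKO mice, Dicer was deleted with Cre driven by the progesterone receptor gene, so the deletion is limited to cells that have expressed that gene, and the controls are labelled wild type. The sources used here do not state whether the controls carried Cre or a floxed allele, how many uteri a pool holds or whether pools share litters. The p-values therefore refer to these pools only. They do not rest on a probe's spread between the pools alone, which is drawn toward the spread of other probes of similar signal. The standard errors and intervals are treated the same way.

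Phospholipase A2 enzymes cut arachidonic acid from membrane phospholipids, and the 2 cyclooxygenases turn it into the unstable precursor from which each terminal synthase makes its own prostaglandin. The products act close to where they are made, through receptors on the cell surface, and are inactivated after uptake into cells. In the uterus of adult rodents the pathway is known for its parts in embryo implantation, decidualization and the contraction of the muscle wall.

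Pla2g10 was about 11-fold lower in Dicer cKO uteri, a size that depended on the processing. Most of the later steps of the pathway did not pass the test or could not be measured. Ptgds was detected on both Dicer cKO arrays and on no control array. Its probe therefore entered the test through the Dicer cKO arrays alone, and its call is given as a description. Of the 15 probes, 11 were detected on at least 2 of the 5 arrays and tested, and they represent 8 of the 10 genes. Ptgs2 and Ptger4 had no tested probe. With limma, 1 tested probe was called lower in Dicer cKO uteri (Pla2g10), 1 was called higher (Ptgds) and 9 did not pass an adjusted p of 0.05. Over all 22845 probes tested, 5.87% were called, 3.52% lower and 2.35% higher, and the members' count of 2 rests on 1 probe in each direction. The groups did not overlap for 6 of the 11 probes, against 36.7% of all probes tested. At an unadjusted p under 0.05 there were 5, against 19.6% of all probes. The median difference of the 11 probes was -0.16 on the log2 scale, and that of all probes 0.01.

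**Figure D1:**
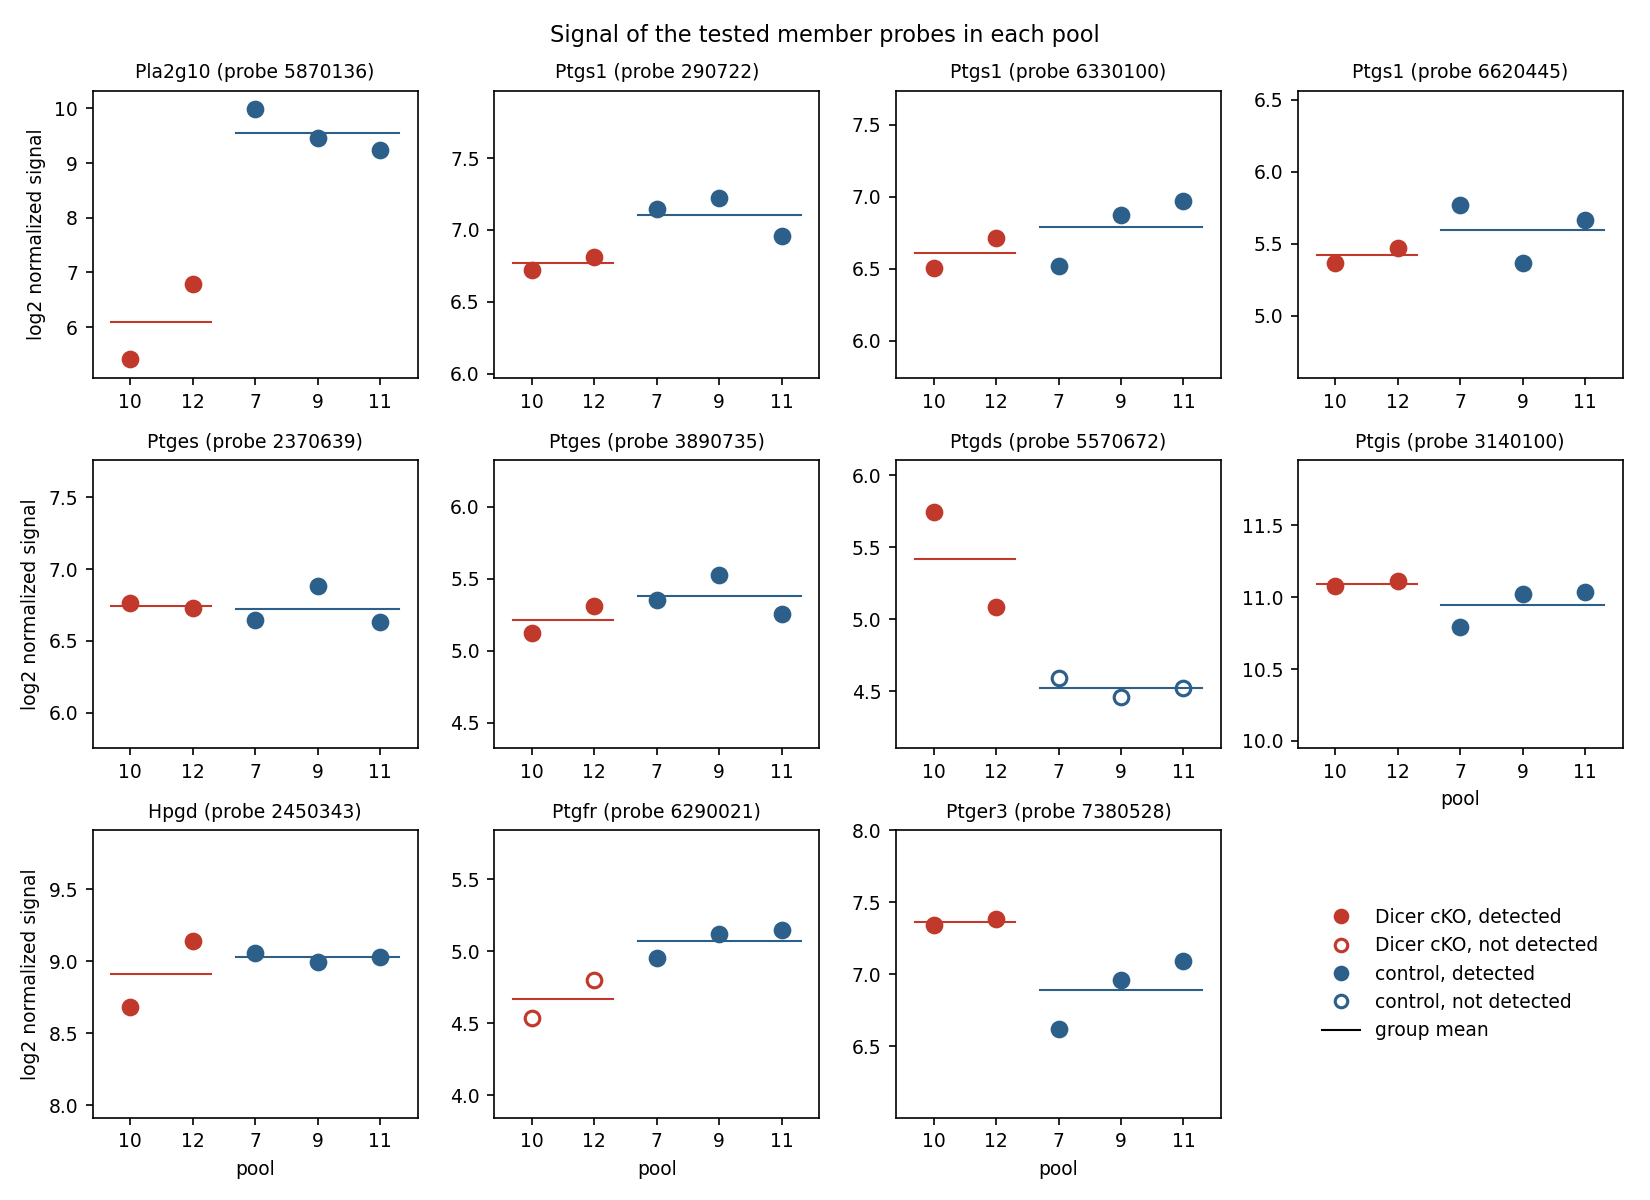
Log2 normalized signal (vertical axis) of the 11 tested member probes in Dicer cKO pools 10 and 12 (red) and control pools 7, 9 and 11 (blue), with lines at the group means; open circles mark arrays on which the probe was not detected, and each panel has its own range. Pla2g10 lies at 5.41 and 6.79 in the Dicer cKO pools, below all controls, while Ptgds is detected only in the Dicer cKO pools.

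The promoter letters are shown for the 2 genes with a called probe. RefSeq (build GRCm38.p6) gave a promoter for 9 of the 10 genes. The 250 bases before the annotated start are printed 5′ to 3′ on the strand of the gene, at chr16:13730485-13730734 (minus strand) for Pla2g10 and chr2:25469750-25469999 (minus strand) for Ptgds. Capitals mark the matches named below.
Pla2g10: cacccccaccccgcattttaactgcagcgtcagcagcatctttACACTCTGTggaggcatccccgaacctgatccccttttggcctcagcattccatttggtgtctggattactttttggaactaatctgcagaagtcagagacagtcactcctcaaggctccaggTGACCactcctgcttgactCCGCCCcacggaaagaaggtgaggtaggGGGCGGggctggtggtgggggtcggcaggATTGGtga
Ptgds: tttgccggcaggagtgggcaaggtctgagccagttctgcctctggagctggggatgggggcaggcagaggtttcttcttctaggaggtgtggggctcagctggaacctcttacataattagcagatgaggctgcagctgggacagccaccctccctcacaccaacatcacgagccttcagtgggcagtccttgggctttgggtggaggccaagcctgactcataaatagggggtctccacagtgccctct

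Both strands were searched for 9 motifs, listed here with the share of all 32851 promoter windows of this length that hold each. They were the core of the element bound by progesterone and related steroid receptors, ACANNNTGT (5.84%), its arm AGAACA (16.1%) with the shorter TGTTC inside it (36.2%), the full oestrogen receptor palindrome (0.0639%), its half-site TGACC (35.2%), the forkhead motif TGTTTAC (3.17%), TATAAA (12.4%), CCAAT (33.8%) and GGGCGG (32.7%). TGACC lies within the palindrome, and ACANNNTGT can overlap AGAACA. The Pla2g10 window held ACANNNTGT 1 time, 207 to 199 bases before the start, TGACC 1 time, CCAAT 1 time as ATTGG on the other strand, and GGGCGG on both strands. Of the other members, Hpgd also had ACANNNTGT. The Ptgds window held none of the 9 motifs. These matches describe letters and were not tested as sites.

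Pla2g10 encodes a secreted phospholipase A2 that frees fatty acids from phosphatidylcholine on the outside of the cell. Its single probe read 5.41 and 6.79 log2 units in Dicer cKO pools 10 and 12, against 9.99, 9.45 and 9.23 in control pools 7, 9 and 11. As deposited, before any correction, the bead intensities were 70.0 and 143 in the Dicer cKO pools, against 1161, 740 and 588 in the control pools. The gene was detected on all 5 arrays, and both Dicer cKO values lay far below the lowest control value. The difference was -3.46 ± 0.33 on the log2 scale (SE; 95% interval -4.20 to -2.72; limma adjusted p = 0.00024), a level 11.0-fold lower in Dicer cKO uteri. It ranked 4 among the decreases of all 22845 probes tested. The SE and interval are moderated, so they do not give the scatter of these 5 pools alone. The Dicer cKO pools themselves stood 1.38 log2 units apart, more than the SD of 0.39 among the control pools, and the standard error over 36 to 46 beads was between 2.61% and 4.50% of the signal on each array. The size of the difference depended on the Dicer cKO pool used and on the processing. It was -2.76 without pool 10 and -4.15 without pool 12. With all pools it was -2.95 without background correction and -2.91 with an offset of 50. Pool 10, at 5.41 log2 units, lay near the lowest detected signal of its array, 5.03. With a robust estimate of the spread, which moderates probes of unusually large spread less, the gene was not called (limma adjusted p = 0.0635).

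The 5 other named genes whose profiles over the 5 arrays were most like that of Pla2g10 are given as a description, since choosing them by their profile fixes that they fall with it. Likeness was measured as the root mean square difference between log2 profiles, each centred on its mean over the 5 arrays. It was 0.26 for Slc39a4, a zinc transporter gene, 0.27 for Lrp2, an endocytic receptor gene, 0.34 for Thrsp, a gene of lipid synthesis, 0.37 for Fxyd4, a regulator of the sodium pump, and 0.39 for Elapor1. Slc39a4 read 7.80 and 8.89 log2 units in Dicer cKO pools 10 and 12, against 11.74, 11.27 and 10.93 in control pools 7, 9 and 11. Lrp2 read 6.31 and 7.17 in the Dicer cKO pools, against 10.80, 9.82 and 9.46 in the control pools. Elapor1 differed from Pla2g10 among the controls, where its values lay between 8.20 and 8.35 and pool 7 was not the highest. Slc39a4, Lrp2 and Fxyd4 were not called with a robust spread, with limma adjusted p of 0.0685, 0.0812 and 0.112.

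**Figure D2:**
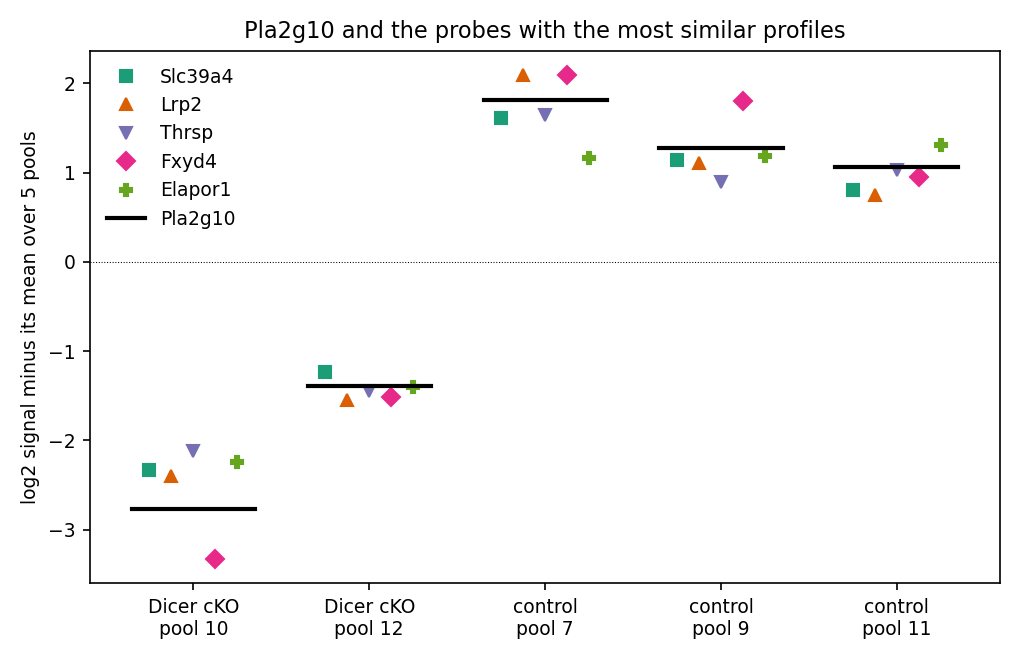
Log2 signal of Pla2g10 (black bars) and of the 5 named genes with the most similar profiles (symbols), each minus its own mean over the 5 pools, for Dicer cKO pools 10 and 12 and control pools 7, 9 and 11. All lie below 0 in both Dicer cKO pools and lowest in pool 10.

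Uterine epithelium and glands are sites of secreted proteins, and markers of both were measured beside Pla2g10. Of 8 gland markers tested, 6 fell and none rose, with a median of -0.91, and their summed signal was 1623 to 2090 in Dicer cKO pools, against 4579 to 5163 in control pools (1221 to 1574 against 2539 to 2794 without Cldn10). Cxcl15 and Cldn10, both marks of uterine glands, fell, with differences of -2.70 for the single Cxcl15 probe and of -2.21, -2.23 and -2.31 for the 3 tested Cldn10 probes on the log2 scale. The gland secretory proteases Prss28 and Prss29 were not detected on any array. Of 14 epithelial markers tested, 6 fell and 3 rose, with a median of -0.27 and a summed signal of 10061 to 10268 in Dicer cKO pools, against 12397 to 15608 in control pools. The part of these cells in the Pla2g10 difference was not tested, and in whole uteri fewer cells of a type and less RNA per cell cannot be told apart.

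The 2 cyclooxygenases differed in whether they could be measured. Ptgs1, the constitutive form, had 3 probes, all detected on all 5 arrays. The first (290722) read 6.72 and 6.81 log2 units in Dicer cKO pools 10 and 12, against 7.15, 7.22 and 6.96 in control pools 7, 9 and 11. Both Dicer cKO values lay below the controls, by a difference of -0.34 ± 0.13 that was not called (limma adjusted p = 0.175). On the other 2 probes (6330100 and 6620445) the groups overlapped, with differences of -0.18 ± 0.16 each and 95% intervals of -0.53 to 0.18 and -0.53 to 0.17. The 3 probes thus had the same sign, none was called, and the intervals leave room for a decrease of up to 0.63 log2 units. Ptgs2, the inducible form that is raised by hormones and by inflammation, was not detected on any array by either of its 2 probes. The intensity of its brighter probe was 49.3 and 54.9 in the Dicer cKO pools and 56.7, 52.9 and 45.1 in the control pools, with detection p values between 0.144 and 0.437.

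Among the terminal synthases, Ptgds stood apart from Ptges and Ptgis. Ptgds encodes the lipocalin-type synthase of prostaglandin D2, a secreted protein that also carries small lipophilic molecules. Its probe read 5.75 and 5.08 log2 units in Dicer cKO pools 10 and 12, against 4.59, 4.46 and 4.53 in control pools 7, 9 and 11. It was above background on both Dicer cKO arrays, with a detection p of 0.0269 on pool 12, and on none of the 3 control arrays. The control values are therefore only a limit (group means 5.42 and 4.53 log2 units, limma adjusted p = 0.0212). The Dicer cKO mean was 1.38-fold above the lowest signals detected on the control arrays, with no allowance for the spread between pools. Pool 12 alone lay close to those signals, at 5.08 against 4.93, 4.96 and 4.98 log2 units. The call rested on few pools. It was lost without control pool 7 (limma adjusted p = 0.0554) and without control pool 9 (limma adjusted p = 0.0640). With detection counted over all 5 arrays, the difference without Dicer cKO pool 10 was 0.56. That fit holds pool 12 as its only Dicer cKO pool, so the difference is given without a test.

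Ptges, the inducible synthase of prostaglandin E2, read 6.76 and 6.73 log2 units on its brighter probe (2370639) in the Dicer cKO pools and 6.64, 6.88 and 6.63 in the control pools. The groups overlapped, and the 95% interval of the difference was -0.27 to 0.32. On the other Ptges probe (3890735) the groups overlapped too, with a difference of -0.16 ± 0.15. Ptgis, the synthase of prostacyclin and an unusual member of the cytochrome P450 family, read 11.08 and 11.11 log2 units in the Dicer cKO pools and 10.79, 11.02 and 11.03 in the control pools. Its groups did not overlap, but they were separated by little, and the difference of 0.15 ± 0.09 (95% interval -0.06 to 0.35) was not called.

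Hpgd encodes the dehydrogenase that takes the first step of prostaglandin breakdown. It read 8.68 and 9.14 log2 units in Dicer cKO pools 10 and 12, against 9.06, 9.00 and 9.03 in control pools 7, 9 and 11. One Dicer cKO pool lay below all controls and the other above them, and the difference of -0.12 ± 0.13 (95% interval -0.40 to 0.17) was not called. Without pool 10 the difference was 0.12, so its direction rested on that pool.

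Of the 3 receptor genes, none was called, and Ptgfr and Ptger3 pointed in opposite directions. Ptger3, the receptor of prostaglandin E2 that lowers cyclic AMP, read 7.34 and 7.39 log2 units on its detected probe (7380528) in the Dicer cKO pools and 6.62, 6.96 and 7.09 in the control pools. Both Dicer cKO values lay above the controls, by 0.48 ± 0.15 (95% interval 0.14 to 0.81; limma adjusted p = 0.105), a difference that did not pass over all probes. Its second probe (6450521) was not detected on any array. Ptgfr, the receptor of prostaglandin F2α that contracts the myometrium, read 4.53 and 4.80 log2 units in the Dicer cKO pools and 4.95, 5.12 and 5.15 in the control pools. It was detected on the 3 control arrays and on neither Dicer cKO array, and the fit did not call it (limma adjusted p = 0.156). The control mean was 1.05-fold above the lowest signals detected on the Dicer cKO arrays. Ptger4, a receptor of prostaglandin E2 that raises cyclic AMP, was not detected on any array, with intensities between 34.7 and 41.3. A further probe, whose longer name on the array includes PTGER4, falls outside the 10 names and was also not detected on any array.

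**Figure D3:**
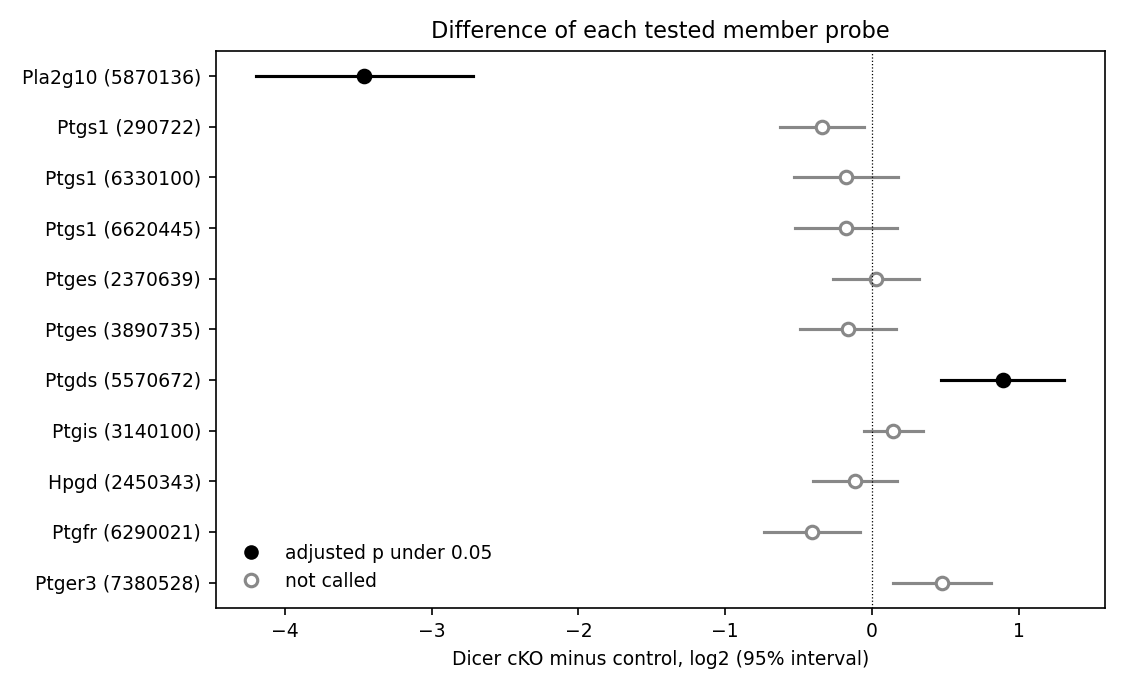
Difference between Dicer cKO and control pools on the log2 scale (horizontal axis, with 95% intervals from limma) for the 11 tested member probes, named by gene and probe number. Pla2g10 at -3.46 and Ptgds at 0.89 are called (filled), and the other 9 probes lie between -0.41 and 0.48.

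Other genes of the same pathways were read from 5 lists that leave out the members. Of 88 listed genes, 87 were on the array and 60 were tested, and 12 had a called probe, 9 lower and 3 higher in Dicer cKO uteri. Over the whole array, 6.99% of 15733 genes had a called probe, 4.15% lower and 2.85% higher. The lists were chosen with earlier results of these data known, so these counts are a description and no conclusion about the pathway is drawn from them. The count of 12 depended on single pools, as 3 of these genes (Cbr2, Cbr3 and Slco2a1) stayed called when the fit left out Dicer cKO pool 10, 7 when it left out control pool 7 and 6 when it left out control pool 9.

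Among 10 other phospholipase A2 genes tested, 2 fell, none rose and 8 did not pass, with a median of -0.04. Pla2g7, which encodes the secreted enzyme that inactivates platelet-activating factor, read 5.004 and 5.68 log2 units in the Dicer cKO pools, against 6.91, 6.34 and 6.69 in the control pools, was detected on 1 of the 2 Dicer cKO arrays, and fell by 1.31 ± 0.22 (limma adjusted p = 0.00571). Pla2g5, another secreted phospholipase A2, was below detection in both Dicer cKO pools, so its probe entered the test through the control arrays alone. It was called lower, which is given as a description (group means 4.67 in Dicer cKO and 5.41 in control pools, limma adjusted p = 0.0172). The control mean was 1.33-fold above the lowest signals detected on the Dicer cKO arrays. Neither call survived the removal of Dicer cKO pool 10 (limma adjusted p = 0.0898 and 0.190), and that of Pla2g5 did not survive the removal of control pool 9 (limma adjusted p = 0.0648). Pla2g4a, the cytosolic enzyme with a preference for arachidonic acid, was not detected on any array, nor were 11 further genes of this list. Pnpla8, a calcium-independent phospholipase, at -0.38 ± 0.10, and Pla2g12a, at 0.36 ± 0.10 and 0.43 ± 0.13 on its 2 tested probes, were not called.

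Genes that handle arachidonic acid before the cyclooxygenases went both ways. Of 13 tested, 1 fell, 1 rose and 11 did not pass, with a median of 0.04. Mgll, the lipase that frees arachidonic acid from monoacylglycerol, fell on 2 of its 3 probes, by 0.47 ± 0.11 and 0.62 ± 0.14 (limma adjusted p = 0.0322 and 0.0307). The remaining probe differed by -0.41 ± 0.11. Daglb, which makes the substrate of Mgll, rose by 0.37 ± 0.10 (limma adjusted p = 0.0492), a call that 15 of the 19 alternative settings did not make, and its dimmer probe differed by 0.0056 ± 0.19. With all pools kept, Mgll was not called on any probe without the intensity trend (limma adjusted p = 0.0733 and 0.0586 on the probes called above). It was also not called without control pool 7 or 11, where the limma adjusted p of those probes lay between 0.0681 and 0.111. Their differences were -0.39 and -0.51 without Dicer cKO pool 10, and -0.54 and -0.72 without pool 12. Each of these fits holds 1 Dicer cKO pool, so the differences are given without a test. Acsl4, which activates arachidonic acid with coenzyme A, differed by -0.47 ± 0.14 on the brighter of its 2 tested probes, and by 0.10 ± 0.16 on the dimmer. Faah, a hydrolase of fatty acid amides, differed by 0.42 ± 0.13 on the brighter of its 2 tested probes and by -0.09 ± 0.13 on the dimmer, and neither gene was called.

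Genes of prostaglandin synthesis, transport and breakdown other than the members held 6 of the 12 called genes. Of 17 tested, 4 fell, 2 rose and 11 did not pass, with a median of -0.04. Cbr2, a carbonyl reductase, read 7.87 and 8.15 log2 units in the Dicer cKO pools, against 9.48, 9.71 and 9.39 in the control pools. It fell by 1.51 ± 0.13 (limma adjusted p = 8.3e-05). Cbr3, a related reductase, fell by 0.89 ± 0.11 and 0.84 ± 0.11 on its 2 probes (limma adjusted p = 0.000948 and 0.00156), and whether probes of related reductases tell their transcripts apart was not tested.

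Transporters of prostaglandins moved in opposite directions. Slco2a1, which takes prostaglandins up into cells for breakdown, read 7.97 and 8.06 log2 units on its brightest probe in the Dicer cKO pools, against 7.12, 7.25 and 7.22 in the control pools. All 3 tested probes rose, by 0.82 ± 0.11, 0.91 ± 0.13 and 1.11 ± 0.14 (limma adjusted p = 0.0019, 0.00306 and 0.00139). Abcc4, which exports prostaglandins, fell by 0.60 ± 0.13 (limma adjusted p = 0.0193). It was not called without the intensity trend (limma adjusted p = 0.0549), control pool 7 (0.0547) or control pool 9 (0.0510). Its difference was -0.50 without Dicer cKO pool 10. The aldo-keto reductase gene Akr1b3, whose enzyme can make prostaglandin F2α, rose by 0.53 ± 0.12 (limma adjusted p = 0.0286), and the related Akr1b8 fell by 0.49 ± 0.12 (limma adjusted p = 0.0482). The Akr1b8 call was lost in 15 of the 19 alternative settings, 5 of which kept all pools, and the Akr1b3 call in 9, among them the fit without the intensity trend. Tbxas1, the synthase of thromboxane, differed by 0.52 ± 0.14 (limma adjusted p = 0.0536) and the transporter gene Slco3a1 by -0.41 ± 0.12, and neither was called. Hpgds, the haematopoietic synthase of prostaglandin D2, and Akr1c18 were not detected on any array.

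The list of other prostanoid receptor genes also held nuclear receptor genes and the gene of a receptor-binding protein. Of its 7 genes tested, 1 fell, none rose and 6 did not pass, with a median of -0.12. Ptger2, the receptor of prostaglandin E2 that, like Ptger4, raises cyclic AMP, read 4.999 and 5.67 log2 units in the Dicer cKO pools and 6.85, 6.43 and 6.36 in the control pools. It was detected on 1 of the 2 Dicer cKO arrays and on all control arrays and fell by 1.21 ± 0.21 (limma adjusted p = 0.00809). When Dicer cKO pool 10 was left out it was not called (limma adjusted p = 0.115). Ptgfrn, a protein that binds the receptor of prostaglandin F2α, at 0.32 ± 0.14, and the nuclear receptor gene Ppard at -0.12 ± 0.09 were not called.

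In the leukotriene branch, where lipoxygenases use the same arachidonic acid, 1 of 13 genes tested fell, none rose and 12 did not pass, with a median of 0.00. Alox5ap, which hands arachidonic acid to the first enzyme of leukotriene synthesis, fell by 0.43 ± 0.10 and 0.41 ± 0.10 on its 2 probes (limma adjusted p = 0.0322 and 0.0418). Neither probe was called without the intensity trend (limma adjusted p = 0.0773 and 0.0846), control pool 9 or control pool 11. Without Dicer cKO pool 10 their differences were -0.36 and -0.48. That first enzyme, Alox5, was below detection in both Dicer cKO pools and was not called (limma adjusted p = 0.203). Its control mean was 1.17-fold above the lowest signals detected on the Dicer cKO arrays. The lipoxygenase gene Alox12e differed by -0.53 ± 0.22 and was not called.

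**Figure D4:**
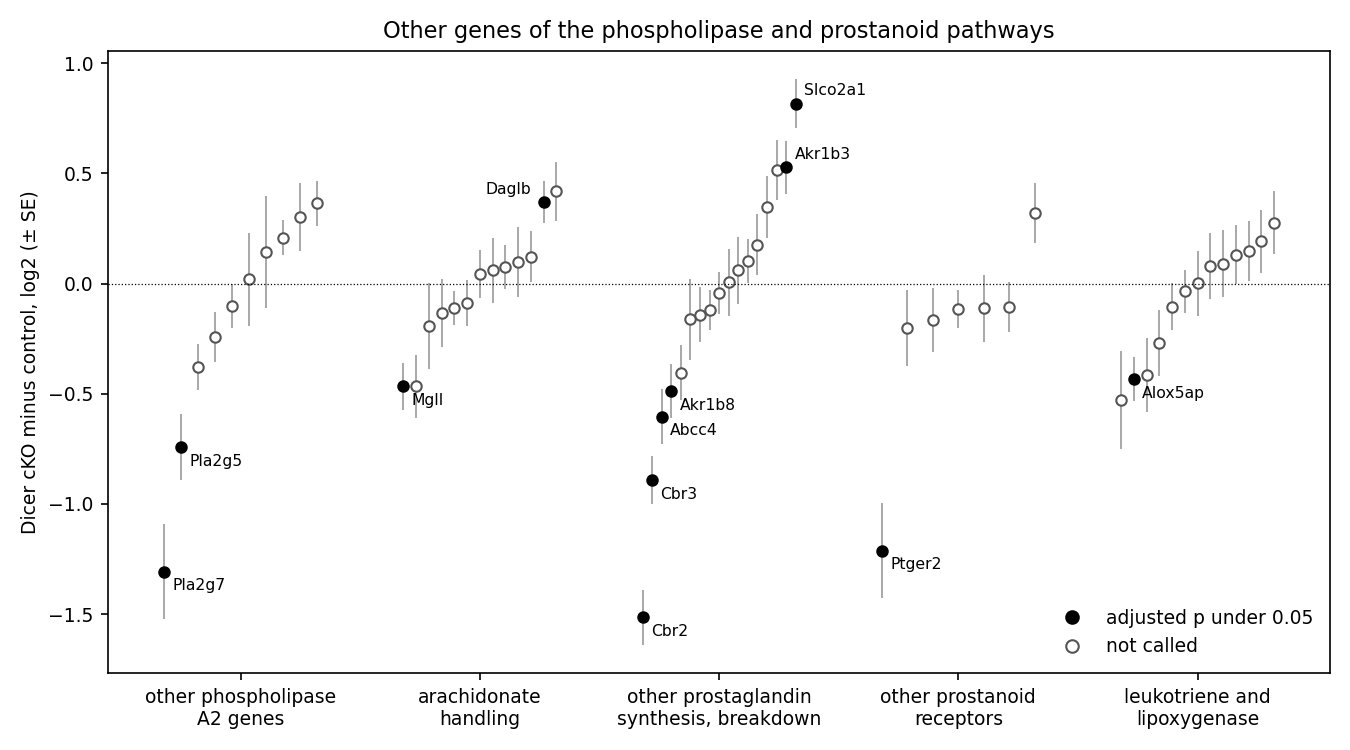
Difference between Dicer cKO and control pools on the log2 scale (± SE) for the tested genes of the 5 pathway lists, 1 probe per gene (a called probe where there was one, otherwise the brightest). Filled points are called, with Cbr2, Pla2g7 and Ptger2 lowest and Slco2a1 highest.

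As a check of the labels, Dicer1 read 8.62 and 8.75 log2 units in the Dicer cKO pools, against 9.15, 9.08 and 9.12 in the control pools, on its brighter probe, a difference of -0.43 ± 0.09 (limma adjusted p = 0.0233). Its dimmer probe differed by -0.22 ± 0.13 (limma adjusted p = 0.392). The sources used here do not place either probe relative to the deleted part. The call on the brighter probe was not made when any 1 control pool was left out, with limma adjusted p of 0.0576 to 0.0764. With all pools kept, it was not made with median scaling (limma adjusted p = 0.0514) or without the intensity trend (limma adjusted p = 0.0604). Without Dicer cKO pool 10 the difference was -0.37. The uterine genes Hoxa10, Hoxa11, Esr1 and Pgr were each detected on all 5 arrays by 1 probe, and Pgr, whose promoter drives Cre, fell by 0.77 ± 0.14 (limma adjusted p = 0.00793; 0.117 without Dicer cKO pool 10). Stromal markers fell in 4 of 14 cases and rose in none, with a summed signal of 39454 to 44624 in Dicer cKO pools, against 47581 to 49468 in control pools. Macrophage markers, read beside Ptgds and Tbxas1, rose in 3 of 10 cases and fell in 1 (Cd14), with a median of 0.37 and 8 genes at an unadjusted p under 0.05. Their sums were 3796 to 4670 in Dicer cKO pools and 3674 to 4053 in control pools, and without Cd14 3540 to 4329 in Dicer cKO pools and 2679 to 3140 in control pools. Of the mast cell markers 1 of 6 fell (Hdc, which other uterine cells also express), and Ms4a2 was not detected on any array. Hdc made up most of the difference in their sum, which without it was 672 to 752 in Dicer cKO pools and 756 to 815 in control pools. Of the adipocyte markers 3 of 5 fell, with sums of 3628 to 4523 in Dicer cKO pools and 4877 to 6777 in control pools that overlapped without Cfd (3120 to 3298 and 2768 to 3937), and Fabp4, Plin1 and Retn were not detected on any array. Among 10 smooth muscle, 10 endothelial and 6 mesothelial markers limma called 0, with 1, 2 and 0 genes at an unadjusted p under 0.05. The part of these cells in the members' differences was not tested.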

How the data were processed

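Uterine RNA of 5 pools was read on Illumina bead arrays. The labels name a human array, while the names in the files are those of mouse genes, and the names in the files were used. The authors deposited, per the file headers, a mean bead intensity per probe, the SD of its beads, their number and a detection score, a fraction from 0 to 1 that rises with signal. The values show no background subtraction or normalization between arrays. BeadStudio is the software per the submitters' processing notes. The share of the 45281 probes detected was 47.0% to 49.5% per array, and the number of arrays limits the precision. The authors also deposited a table of the same arrays with intensity values. Its values are linear, and every column has a median of 71.1, the mark of quantile normalization. Its identifiers match no probe column, so it gave only a count of calls. Any background treatment of it is not known.

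Signals were corrected with normexp from the detection p (1 minus the score), with an offset of 16, quantile-normalized and put on a log2 scale with neqc of limma 3.58.1 (R 4.3.3). The offset compresses differences of dim probes. Probes detected (p under 0.05) on 2 or more arrays were tested 1 at a time with lmFit and eBayes with an intensity trend, 2-sided, with no covariate, and Benjamini-Hochberg adjustment over 22845 probes. Levels of different probes were not compared as amounts of RNA. They were used to pick a gene's brightest probe, in the summed marker signals and for the lowest detected signal of an array. In the sums, bright probes weigh most. Differences are Dicer cKO minus control. Their standard errors, intervals and p-values are the moderated ones of eBayes. It draws each probe's spread toward that of other probes of similar signal. An exact permutation test of 2 against 3 pools cannot go below 0.1 and was not used. Where a group was below detection on all its arrays, the fold sets the mean of the other group against the lowest detected signals of those arrays. It makes no allowance for the spread between pools. Array names were brought to current symbols through RefSeq (22864 probes carried one, 11917 were matched by a synonym). The genes named are all members, every called gene of each pathway list and the 2 uncalled genes with the largest moderated t, and at most 2 detected genes of each marker list. Genes named only as not detected, and Hdc, Cd14 and Cfd, named because they carry a list's sum, fall outside this rule and were chosen after their values were seen. A list gene counts as called where any probe is, and its median uses the brightest probe. The fit was tested on simulated data. The members and lists were chosen with earlier results of these data known. Neither labels nor files name a slide or scan, and batches were not tested.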

Additional observations from a re-analysis of the deposited data

How the results depend on the processing

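Pla2g10 kept its direction in all 19 alternative settings, with limma adjusted p from 0.000123 to 0.0635, and its difference ran from -4.15 to -2.76 when each pool was left out in turn. It was not called with a robust spread (-3.46, limma adjusted p = 0.0635). The number of member probes called was 1 with detection required on all arrays, which leaves Ptgds untested, and 1 with a robust spread, and it ran from 1 to 2 with a pool left out. Ptgds was not tested without Dicer cKO pool 10 or 12 when detection was counted on the 4 remaining arrays. A second way of leaving out pools, with detection and normalization taken from all 5 arrays, was chosen after seeing the data. Other pathway genes called numbered 7 with detection required on all arrays and 7 without the intensity trend, and ran from 3 to 10 with a pool left out. Over the whole array 1340 probes were called, and 356 to 1235 with a pool left out. With detection taken from all 5 arrays these counts were 383 without Dicer cKO pool 10, 802 without control pool 7 and 848 without control pool 9. The authors' value table gave 1295 calls over 45281 rows. Some differences near 0 changed sign, and none of these was called. The brighter Ptges probe was at -0.023 with median scaling and ran from -0.019 to 0.11 with a pool left out (-0.011 without control pool 7 and -0.018 without control pool 11 with detection from all 5 arrays). Hpgd ran from -0.34 to 0.12 (0.11 without Dicer cKO pool 10 with detection from all 5 arrays). The dimmer Acsl4 probe ran from -0.015 to 0.19 (-0.015 without control pool 9). The dimmer Daglb probe was at -0.0035 with an offset of 50 and ran from -0.12 to 0.20 with a pool left out (-0.0065, -0.12 and -0.059 without Dicer cKO pool 10, control pool 7 and control pool 9 with detection from all 5 arrays). The cause of these changes was not tested. No paired analysis was possible because the pools of the 2 groups share no number. The probes of Ptgs2 and Ptger4 were not detected on any array, so no difference in these genes could be measured. Whether undetected probes can report their transcripts was not tested. For the stromal marker Vim, 1 probe was not detected on any array while the other read 10.85 to 12.04 log2 units.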
